A study of Mus musculus with 36 samples.

Results

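The change that adult bone marrow monocytes underwent while becoming alveolar macrophages, the resident phagocytes of the lung's airspaces, was measured by comparing 4 arrays of alveolar macrophages derived from transferred bone marrow monocytes with 4 arrays of the monocytes themselves. These are 8 of the series' 36 microarrays, chosen by their titles alone. The other arrays hold fetal liver monocytes, yolk sac macrophages, alveolar macrophages and the cells derived from each. Of 19938 genes with a probe set of 1 symbol, 12244 were bright enough to be tested.

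Donors were wild-type CD45.1+CD45.2+ C57BL/6 mice. The monocyte arrays hold cells sorted from the crushed bones of adults of 6 to 12 weeks. Part of such cells was given intranasally to neonate Csf2rb-/- mice. These hosts lack the common receptor chain for GM-CSF and form no mature alveolar macrophages of their own. After 6 weeks CD45.1+CD45.2+ alveolar macrophages of donor origin, called BM-derived here, were sorted from lung lavage. As a reference, alveolar macrophages of wild-type mice of 6 weeks, called native here, were sorted from lavage (4 arrays). For a check of what was particular to bone marrow, the same step was measured for fetal liver monocytes (stage E15.5) and yolk sac macrophages (stage E12.5), with 4 arrays before and 4 after transfer each. The precursor and the macrophage therefore differ in tissue, in handling (crushed bone against flushed lung) and in time since isolation from the donor. They also differ in the genotype and age of the mouse that held them. Monocytes came from wild-type adults, and macrophages from Csf2rb-/- hosts that had received the cells as neonates. These differences cannot be told apart. Sort markers beyond CD45, the marker type of the host and whether a replicate was 1 animal or a pool were not stated in the labels. P-values therefore measure the spread between arrays that the titles call biological replicates.

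Monocytes are made in the bone marrow and circulate for a short time before they enter tissues. Alveolar macrophages live in the airspace, take up surfactant and inhaled particles and renew themselves locally. They depend on GM-CSF from the lung's epithelium, which acts through the transcription factor PPARγ on genes of lipid handling, and on TGF-β.

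Levels are log2 values as normalised by RMA. Differences are those of group means on the log2 scale, BM-derived minus monocyte, ± the standard error from a limma fit with n = 4 arrays per group, and adjusted p-values are limma's after Benjamini-Hochberg correction over all genes tested. A gene rose or fell where that p was under 0.05. A fold is given as "at least" where the lower of both means was below the table's median (4.62), the limit used here for telling a probe set from background. In sorted bulk cells a lower level can come from fewer cells that express a gene or from less RNA per cell, and these cannot be told apart. The 4 monocyte arrays correlated with each other at a mean of 0.968 to 0.975 per array and the BM-derived arrays at 0.979 to 0.981. By this test 2484 genes rose (20.3% of those tested) and 1969 fell (16.1%), 36.4% in all, with a median difference of -0.02 over all genes. All 4 BM-derived arrays were above all 4 monocyte arrays for 18.3% of genes and below them for 15.1%. At 2-fold or more 1018 rose (8.31%) and 661 fell (5.4%), and at 16-fold or more 76 rose and 56 fell. The split into rises and falls depended on scaling. With each array centred on its own median the median difference became -0.15, and 1991 genes rose while 3123 fell, so that small differences have no firm direction.

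The cells went from a monocyte to an alveolar macrophage profile by their markers. All 13 measured alveolar macrophage markers rose and all 12 measured monocyte markers fell, 7 of them to a mean under the table's median. The summed linear level of the macrophage markers was 5150 to 5580 in the monocyte arrays and 36100 to 38500 in the BM-derived arrays, against 35800 to 37100 in native cells. Most of the monocyte sum came from Chil3, at a mean of 12.25 in the monocytes and 13.02 after transfer (0.77). In the monocytes 5 of the 13 were under the table's median. The mean log2 level over the 13 was 5.44 to 5.79 in the monocyte and 10.71 to 10.87 in the BM-derived arrays. Both lists overlap with the genes named below.

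Promoters of leading genes are shown first, for the sequence at the start of transcripts whose level differed. Transcription itself was not measured. RefSeq windows of 250 bases before to 50 after the start (GRCm38.p6) were held for 9816 of the genes tested, among them 11 of the 15 genes with the largest rise and 14 of the 15 with the largest fall. All 12353 windows of the 9816 genes were searched on both strands for 7 strings. A gene counts where any of its windows held the string. The direct repeat read by PPARγ with RXR, AGGTCA followed by any base and AGGTCA again, was in 3 of all 9816 genes (0.0306%) and in none of the leading genes. With the fourth base of each repeat left free (AGGNCA) it was in 0.326% of all genes and in 0.598% of those that rose at least 2-fold, among them Fabp1, against 0.559% of those that fell (5 of 836 and 3 of 537 genes). TTGCNCAA, a form of the C/EBP site, was in 2.92% of all genes, 3.83% of those that rose at least 2-fold and 3.72% of those that fell. It was in 3 of the 11 leading rises (Ctsk, Plet1 and Dab2) and in Ngp among the falls. The full dyad TTGCGCAA, which TTGCNCAA includes, was in 0.316% of all and in none of the leading genes. GAGGAAGT, a core of the PU.1 site that overlaps none of the other strings, was in 3.79% of all genes, 5.26% of those that rose at least 2-fold and 7.64% of those that fell, with F13a1 among the leading genes. The E-box CACGTG was in 11.6%, 14.8% and 9.31% of these sets, with Plbd1 among the leading genes. TCACGTGA, which contains it, was in 2.12%, 2.39% and 2.05% and in no leading gene. A match is a string in a window, not a site shown to be bound. The 4 windows printed below belong to 3 of the largest rises and 1 of the largest falls, with the match in capitals. Each is written 5′ to 3′ on the gene's own strand.
Fabp1 (chr6:71199629-71199928, + strand; the repeat of AGGNCA on the opposite strand, starting 67 bases before the start): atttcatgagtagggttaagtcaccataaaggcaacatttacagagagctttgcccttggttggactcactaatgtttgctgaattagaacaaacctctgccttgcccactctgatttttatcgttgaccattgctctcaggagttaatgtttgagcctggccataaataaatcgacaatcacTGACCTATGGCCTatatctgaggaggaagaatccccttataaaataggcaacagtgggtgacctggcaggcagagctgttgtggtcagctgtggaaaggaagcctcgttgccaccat
Plet1 (chr9:50494275-50494574, + strand; TTGCNCAA on the opposite strand, starting 198 bases before the start): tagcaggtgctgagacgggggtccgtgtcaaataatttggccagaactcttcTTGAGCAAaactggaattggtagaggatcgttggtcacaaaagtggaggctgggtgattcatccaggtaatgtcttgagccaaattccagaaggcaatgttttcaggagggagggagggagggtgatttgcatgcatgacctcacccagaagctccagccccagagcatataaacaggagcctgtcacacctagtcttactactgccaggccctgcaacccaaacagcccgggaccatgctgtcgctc
Ctsk (chr3:95498960-95499259, + strand; TTGCNCAA on the opposite strand, starting 76 bases before the start): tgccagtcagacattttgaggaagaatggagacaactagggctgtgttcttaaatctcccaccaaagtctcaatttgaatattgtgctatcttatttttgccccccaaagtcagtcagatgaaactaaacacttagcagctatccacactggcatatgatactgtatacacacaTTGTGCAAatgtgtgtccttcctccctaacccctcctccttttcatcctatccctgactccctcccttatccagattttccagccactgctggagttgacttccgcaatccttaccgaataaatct
F13a1 (chr13:37049164-37049463, - strand; GAGGAAGT on the gene's own strand, starting 14 bases after the start): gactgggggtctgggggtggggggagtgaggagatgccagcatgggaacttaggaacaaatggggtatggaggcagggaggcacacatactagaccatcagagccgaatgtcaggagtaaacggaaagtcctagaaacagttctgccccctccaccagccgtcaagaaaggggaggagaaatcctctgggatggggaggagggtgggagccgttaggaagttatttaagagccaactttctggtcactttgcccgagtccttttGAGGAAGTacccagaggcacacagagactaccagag

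The largest rises were in genes of lipid transport, the lysosome, adhesion and endocytosis. Fabp1, a fatty acid carrier best known from liver, stood at 3.28, 3.18, 3.33 and 3.11 in the monocytes and 12.10, 12.33, 11.92 and 12.09 after transfer. Every monocyte array was under the table's median and every BM-derived array near 12, and the log2 difference was 8.89 ± 0.23 (adjusted p = 2.26e-25). Ctsk, the collagen-degrading cathepsin K, was at 4.18, 3.36, 3.37 and 3.83 in the monocytes and 11.13, 10.76, 11.20 and 11.18 after transfer, at least 87.1-fold higher (7.38 ± 0.20, adjusted p = 2.26e-25). Mt2, a metal-binding metallothionein, was at 3.98, 5.54, 4.23 and 3.86 in the monocytes and 11.93, 11.76, 11.70 and 11.76 after transfer (7.39 ± 0.36). Monocyte replicate 2 was the only one of the 4 above the table's median for Mt2, and the groups stayed far apart. Itgax, which encodes CD11c, was at 4.11, 4.17, 4.39 and 4.32 in the monocytes and 10.35, 10.65, 10.74 and 10.33 after transfer (at least 59.4-fold). The other leading rises were the proton pump subunit Atp6v0d2 (8.33), the surface protein Plet1 (7.88), the carbonic anhydrase Car4 (7.58), the keratin Krt19 (6.90), the endocytic adaptor Dab2 (6.85), the adhesion receptor Cd2 (6.57) and Kazald1, a secreted protein with a Kazal-type domain (6.51). They also held the mannose receptor Mrc1 (6.37), Clec4n, which encodes the fungal receptor Dectin-2 (6.27), the glycoprotein Gpnmb (6.25) and the tetraspanin Cd9 (6.15). In 11 of these 15 genes the monocyte mean was under the table's median.

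**Figure D1:**
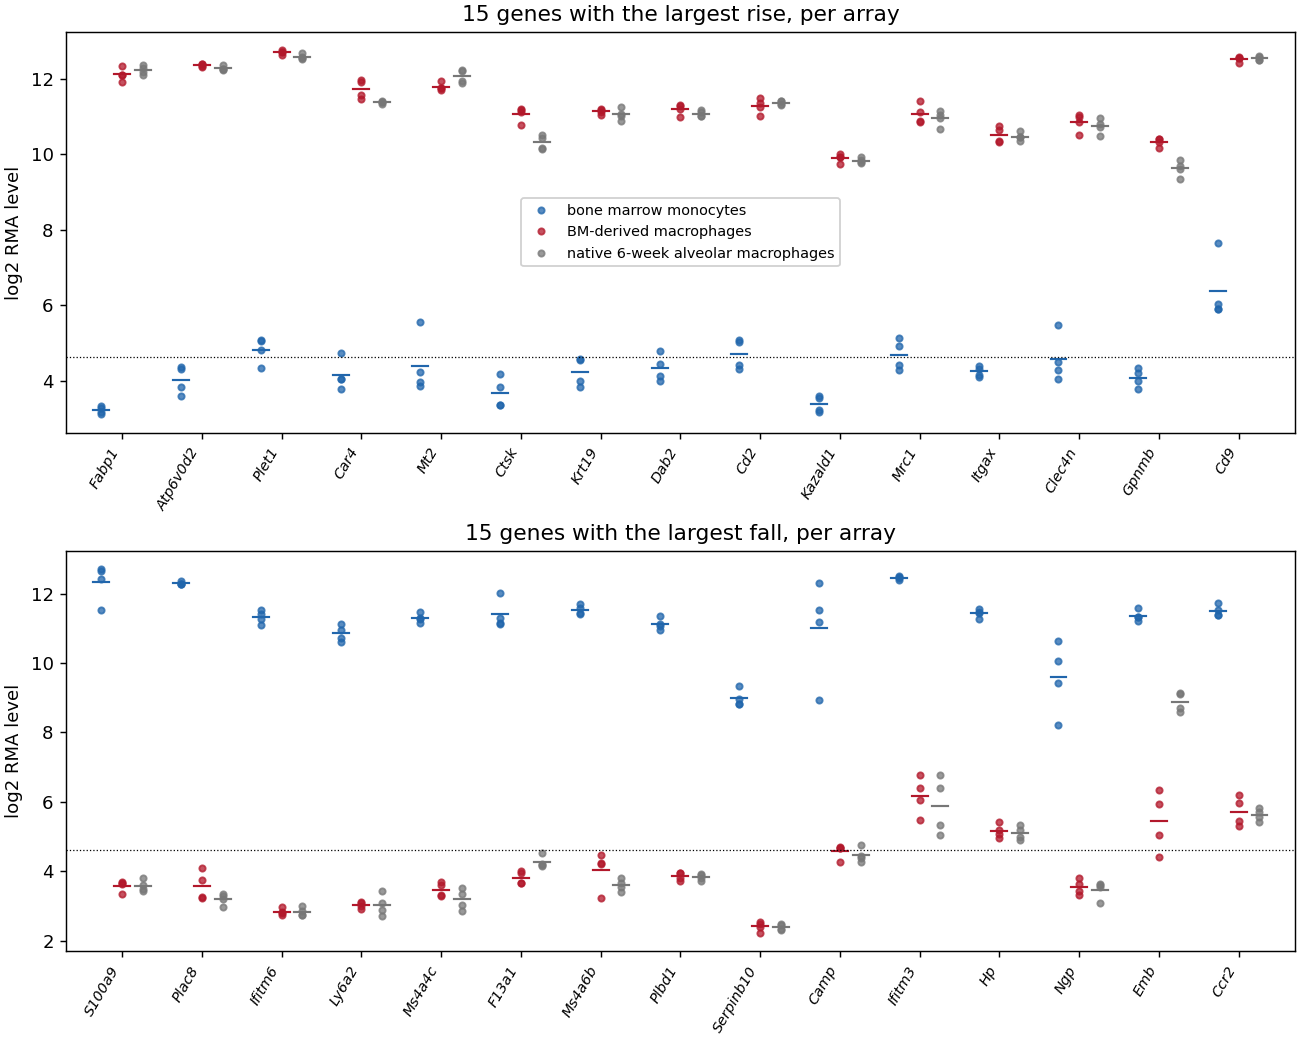
Log2 RMA level of the 15 genes with the largest rise (top) and the largest fall (bottom) in each array of bone marrow monocytes (blue), BM-derived macrophages (red) and native macrophages of 6 weeks (grey); each point is 1 array, short lines are means of 4 and the dotted line is the table's median of 4.62. Genes were chosen for monocyte and BM-derived arrays that do not overlap. The native arrays of Emb stand between those of the other 2 groups.

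The largest falls were in calcium-binding and granule proteins, interferon-induced membrane proteins and the receptor that guides monocytes. S100a9, a subunit of calprotectin, was at 12.43, 11.53, 12.64 and 12.71 in the monocytes and 3.70, 3.66, 3.34 and 3.65 after transfer, at least 209-fold lower (-8.74 ± 0.32, adjusted p = 1.55e-21). Its partner S100a8 fell less, from 12.61, 12.17, 12.81 and 12.98 to 10.17, 8.46, 11.06 and 10.85 (-2.51 ± 0.41). S100a8 thus stayed well above the table's median in all 4 BM-derived arrays, lowest in replicate 2, while S100a9 did not. Ccr2, the receptor through which monocytes leave the marrow, was at 11.53, 11.74, 11.37 and 11.38 in the monocytes and 6.18, 5.44, 5.96 and 5.31 after transfer (55-fold lower). F13a1, the catalytic chain of clotting factor XIII, was at 11.13, 12.03, 11.14 and 11.29 in the monocytes and 3.66, 4.01, 3.65 and 3.96 after transfer (at least 110-fold lower). Plac8 (-8.72), Ifitm6 (-8.49), Ly6a2 (-7.83), Ms4a4c (-7.82), Ms4a6b (-7.50), Plbd1 (-7.25), Serpinb10 (-6.57), Ifitm3 (-6.29), haptoglobin (Hp, -6.27) and embigin (Emb, -5.92) completed the group with Camp and Ngp. The Ifitm, Ly6 and Ms4a genes have close relatives whose RNA may share probes. In 11 of the 15 the BM-derived mean was under the table's median.

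Genes of neutrophil granules and their precursors were part of the monocyte signal and varied between monocyte arrays. Camp, the antimicrobial peptide cathelicidin, was at 11.18, 8.95, 11.53 and 12.31 in the monocytes and 4.70, 4.67, 4.67 and 4.27 after transfer (-6.42 ± 0.44). Ngp, a neutrophil granule protein, was at 9.42, 8.23, 10.06 and 10.63 in the monocytes and 3.42, 3.64, 3.32 and 3.81 after transfer (-6.04 ± 0.47). Mpo, the myeloperoxidase of primary granules, was at 9.53, 7.42, 9.0 and 9.82 in the monocytes and 4.19, 4.31, 4.27 and 3.91 after transfer (-4.77 ± 0.32). Monocyte replicate 2 was the lowest of the 4 for all 3 genes. Of 14 neutrophil markers, 6 (Ly6g, Mmp9, Cxcr2, Retnlg, Stfa2 and Stfa3) had a monocyte mean under the table's median, and the summed level was 9820 to 24300 in the monocyte arrays and 1140 to 3260 after transfer. For 9 progenitor markers the sums were 1130 to 3510 and 140 to 149, with Cd34, Kit, Gfi1 and Hlf under the median in the monocytes. Over 9 dendritic cell markers the sums were 240 to 441 and 126 to 146, Flt3 (-1.40), Kmo (-2.81) and Dpp4 (-2.82) fell and none of the 6 tested rose. Nkg7 (-2.60) of the T and NK cell markers and Cd79b (-2.22) of the B cell markers fell too. Cd22, the other B cell marker tested, rose by 2.56. The sum over 8 B cell markers was 180 to 280 before and 285 to 351 after transfer. The part of such cells in the falls was not tested. In the list of antimicrobial and granule proteins 5 of 29 measured members rose and 16 fell (median -0.64, against -0.02 over all genes). Falls included Chil1 (-5.31), lipocalin-2 (Lcn2, -5.25), the peptidoglycan receptor Pglyrp1 (-5.14) and the serine proteases Prtn3 (-5.03), Ctsg (-4.68) and Elane (-4.52). Ear6, a ribonuclease of the eosinophil family (4.07), and Wfdc21 (3.39) rose.

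Many markers of other cells were under the table's median in the BM-derived arrays, but not all. The neutrophil marker Mmp8 had a mean of 9.35 ± 0.37, against 9.95 ± 0.28 in the monocytes and 7.95 ± 0.64 in native cells. The B cell marker Cd22 had a mean of 7.78 ± 0.21, against 7.59 ± 0.16 in native cells. The sum over 10 T and NK cell markers was 179 to 514 before and 2180 to 3020 after transfer, and Cd2 was the only member called higher, with 8 of the 10 under the table's median, Cd3d, Cd3g, Cd4 and Cd8a among them. The sum over 11 lung epithelium markers was 248 to 272 and 593 to 773. Of its members Cdh1 and Epcam rose, Sftpc was called at 0.82 but not with arrays centred (0.69, adjusted p = 0.0797) or without any 1 of BM-derived replicates 2, 3 and 4 and monocyte replicates 1, 2 and 4 (0.59 to 0.85), and Sftpd, Scgb1a1, Scgb3a2, Lamp3 and Nkx2-1 were under the median. Over 10 markers of other tissue macrophages the sum was 1270 to 1550 and 2040 to 2910, with 7 of 10 under the median in both groups, C1qb, C1qc, Lyve1 and Folr2 among them. This sum joined opposite changes. Mrc1 went from a mean of 4.69 in the monocytes to 11.06 after transfer, and Apoe from 10.23 to 6.29. The part of epithelial or other carried RNA in the results was not tested.

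The 34 gene lists held 982 genes tested, of which 353 rose and 223 fell (58.7%, against 36.4% of all genes). With each array centred 314 rose and 293 fell. The lists were made of genes known in macrophages and monocytes, so this share describes the choice of genes as much as the cells. They are described below by role, from regulators to surface receptors, the lysosome and metabolism. Each count is to be set beside the 20.3% of all genes that rose and the 16.1% that fell. Where a list lies near these shares, its count is no result about its members.

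**Figure D2:**
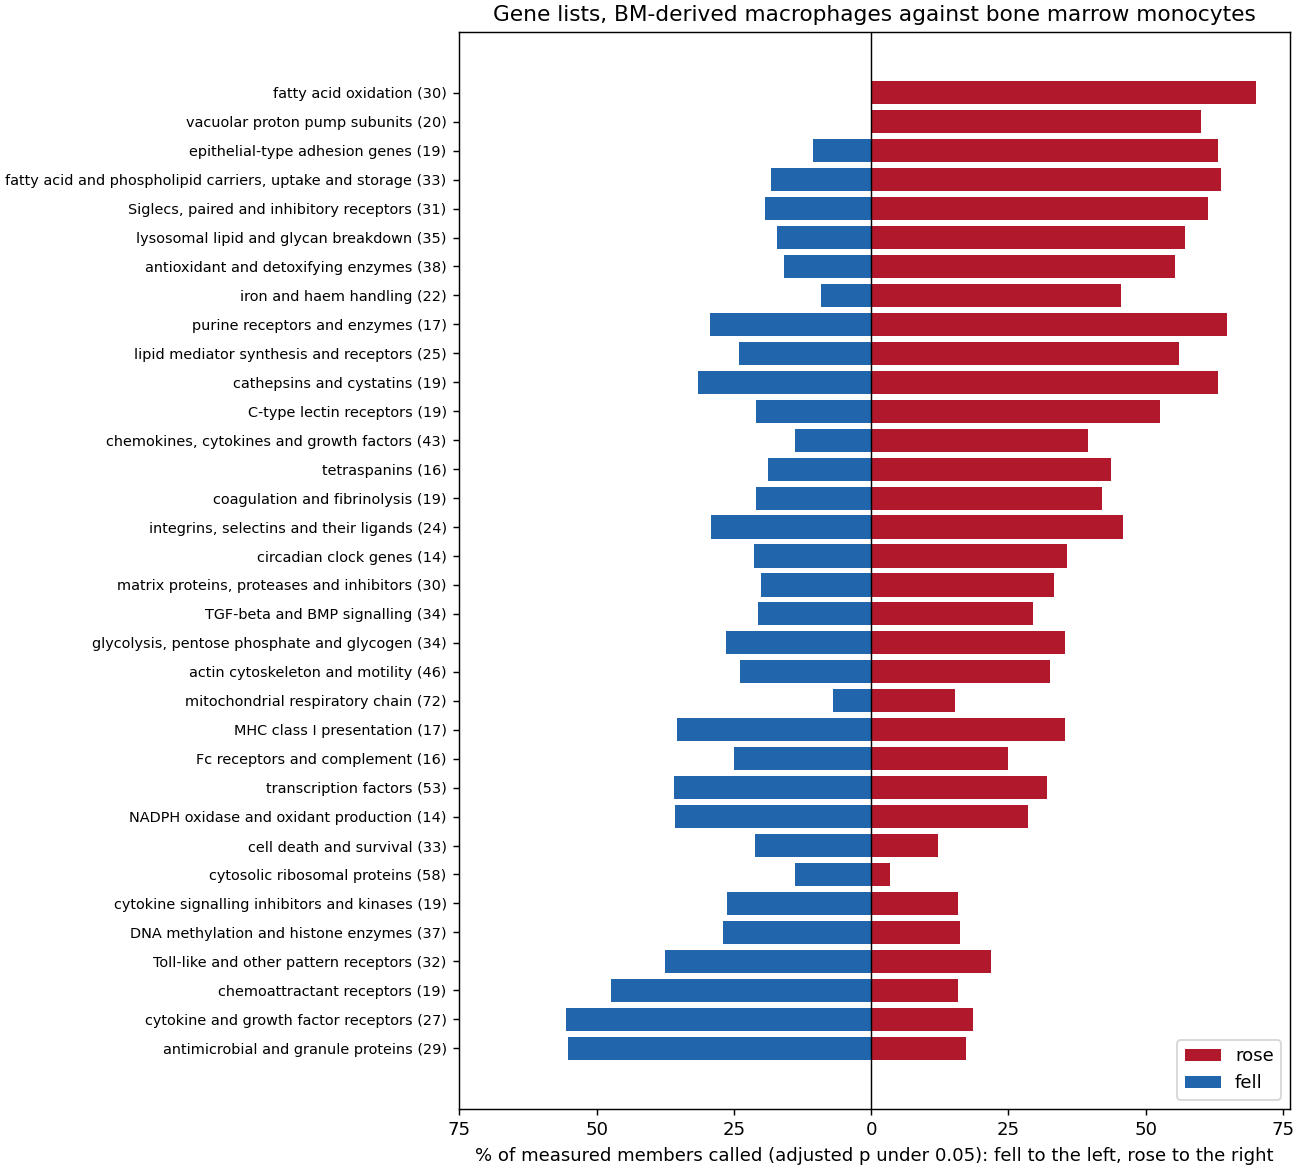
Share of each list's measured members (number in brackets) that rose (red, to the right) or fell (blue, to the left) in BM-derived macrophages against bone marrow monocytes at an adjusted p under 0.05. Fatty acid oxidation (21 of 30) and proton pump subunits (12 of 20) had rises and no falls, and antimicrobial proteins (16 of 29) and cytokine receptors (15 of 27) had the largest shares of falls.

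Transcription factors changed in both directions, with 17 of 53 measured members rose and 19 fell (median -0.05). Pparg, which encodes PPARγ, was at 5.23, 5.54, 6.02 and 5.21 in the monocytes and 10.49, 10.29, 10.17 and 9.98 after transfer, 26.6-fold higher (4.73 ± 0.14, adjusted p = 9.57e-24). Tcf7l2, an effector of Wnt signalling, was at 5.52, 5.38, 5.85 and 5.78 in the monocytes and 10.95, 11.40, 11.21 and 11.11 after transfer (5.53 ± 0.15, 46.3-fold). Bhlhe41, a repressor of the basic helix-loop-helix family known in self-renewing alveolar macrophages, was at 2.89, 2.99, 3.67 and 3.27 in the monocytes and 8.38, 8.76, 8.59 and 8.38 after transfer (5.32 ± 0.23). No BM-derived array overlapped a monocyte array for any of these 3 genes. The related Bhlhe40 rose by 4.32, the zinc-finger factor Egr2 by 4.75, the oxysterol receptor LXRα (Nr1h3) by 2.85 and the shared nuclear receptor partner Rxra by 1.88. Cebpa (0.89), Cebpb (0.94), the lysosomal regulator Mitf (1.37) and its relative Tfec (1.43) also rose. Their relatives Tfeb (-0.04, adjusted p = 0.874) and Tfe3 (-0.04, adjusted p = 0.861) were not called. Falls were led by interferon regulatory factors. Irf7 was at 8.87, 8.12, 8.42 and 8.36 in the monocytes and 6.25, 5.15, 6.03 and 6.58 after transfer (-2.44 ± 0.27), Irf5 changed by -2.09, Irf4 by -1.77 and Irf8, needed for monocyte formation, by -1.62. Cebpe, a factor of granule genes (-1.88), the nuclear receptor Nr4a1 (-1.75), Klf2 (-1.43) and the progenitor factor Myb (-1.25) fell as well. Centring each array gave 15 rises and 23 falls in this list.

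**Figure D3:**
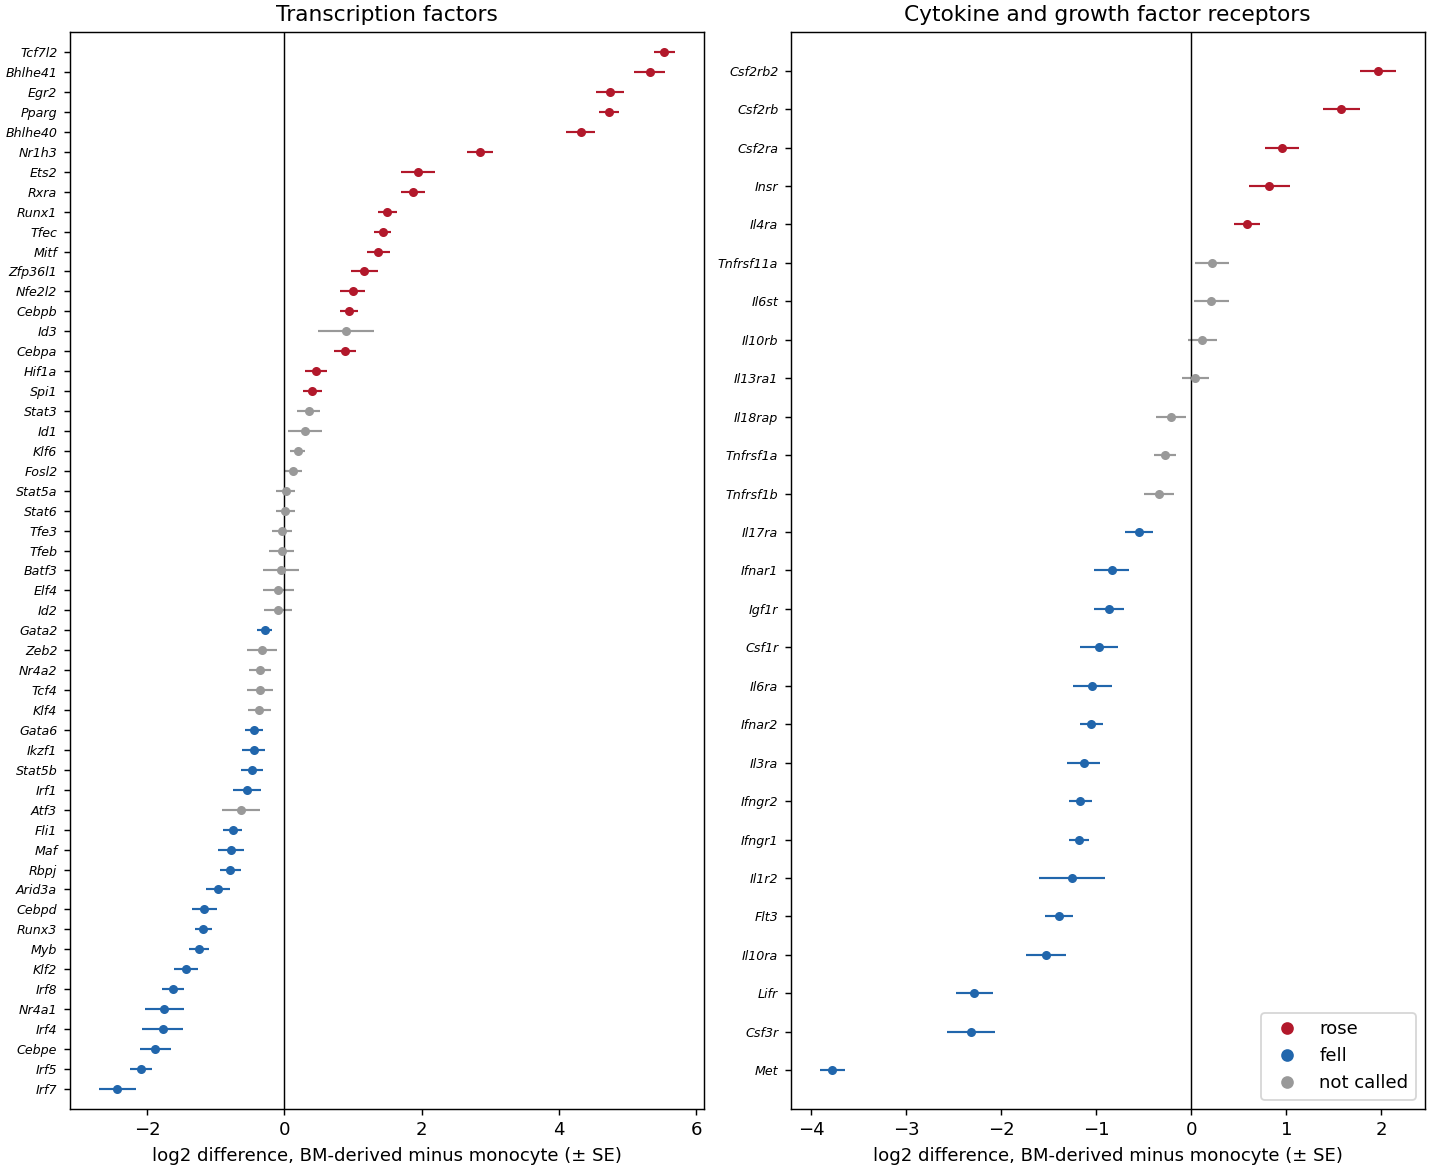
Log2 difference (BM-derived minus monocyte, n = 4 arrays per group) of each measured transcription factor (left) and cytokine or growth factor receptor (right); bars are standard errors of the limma fit, red points rose, blue points fell and grey points were not called. The factors spread from -2.44 (Irf7) to 5.53 (Tcf7l2), and among the receptors Csf2rb2, Csf2rb and Csf2ra are at the top. Met, at -3.78, was under the table's median after transfer, so its place below Csf3r is not settled.

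Receptors for cytokines and growth factors mostly fell, with the GM-CSF receptor as an exception: 5 of 27 measured members rose and 15 fell (median -0.84). Csf2rb, the common chain that the hosts lack, was at 7.65, 8.62, 8.46 and 8.10 in the monocytes and 9.78, 9.98, 9.78 and 9.62 after transfer (1.58 ± 0.19, adjusted p = 3.66e-08). Its neighbour and close relative Csf2rb2 was at 6.13, 6.13, 6.62 and 6.83 in the monocytes and 8.40, 8.51, 8.42 and 8.24 after transfer (1.96 ± 0.19), and probes may not fully separate the pair. Csf2ra, the chain specific to GM-CSF, was at 8.16, 8.59, 8.42 and 8.39 in the monocytes and 9.21, 9.41, 9.25 and 9.49 after transfer (0.95 ± 0.18). All 4 BM-derived arrays were above all 4 monocyte arrays for each of these genes. The level of Csf2rb after transfer differed from that of native cells by -0.06 (adjusted p = 0.976). Il4ra (0.58) and the insulin receptor Insr (0.82) also rose. Met, the receptor for hepatocyte growth factor, was at 6.14, 6.86, 6.62 and 6.41 in the monocytes and 2.79, 2.78, 2.66 and 2.68 after transfer (-3.78 ± 0.13). The G-CSF receptor Csf3r (-2.32), the leukaemia inhibitory factor receptor Lifr (-2.28), the interleukin-10 receptor Il10ra (-1.53) and the progenitor receptor Flt3 (-1.40) fell. After transfer Met, Lifr and Flt3 were under the table's median, so their falls are bounded at 3.7, 1.66 and 1.66-fold or more. The 4 interferon receptor chains in the list fell, namely Ifngr1 (-1.18), Ifngr2 (-1.17), Ifnar1 (-0.84) and Ifnar2 (-1.05). Among 19 inhibitors and kinases of cytokine signalling 3 rose and 5 fell (42.1% called, near the 36.4% of all genes). The feedback inhibitors Socs2, at 3.69, 3.79, 4.37 and 3.02 in the monocytes and 7.43, 7.26, 7.32 and 6.66 after transfer (3.45 ± 0.22), and Cish (2.18 ± 0.25) rose, and Socs6 (-1.92) fell. Socs2 and Cish are known targets of STAT5, a factor that acts below the GM-CSF receptor. Stat5a was not called (0.02, adjusted p = 0.933) and Stat5b fell (-0.47). The kinase Jak2 fell (-0.70), and Socs1 (-0.26) and Socs3 (-0.03) were not called. The part of STAT5 in these changes was not tested.

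TGF-β receptors rose and SMAD genes changed in both directions. In this list 10 of 34 measured members rose and 7 fell (median 0.24). Tgfbr2, the receptor chain that binds TGF-β, was at 6.01, 6.51, 5.75 and 6.06 in the monocytes and 8.74, 8.58, 8.87 and 8.62 after transfer (2.62 ± 0.15). Tgfbr1, the chain that signals, was at 7.97, 7.76, 7.60 and 7.71 in the monocytes and 10.15, 10.25, 9.80 and 9.77 after transfer (2.23 ± 0.16). Arrays of the 2 groups did not overlap for either chain. The feedback genes Pmepa1 (1.79), Ski (1.01) and Skil (0.80) rose. The signal carriers Smad3 (-1.50) and Smad4 (-0.67) fell while Smad1 (0.84), a carrier of BMP signals, rose. A fall was also called for Nrros (-1.26), an anchor of latent TGF-β.

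Several chemoattractant receptors fell, Ccr2 and Cx3cr1 among them, and the complement receptor C5ar1 rose. In the list of chemoattractant receptors 3 of 19 measured members rose and 9 fell (median -0.59). Besides Ccr2, the fractalkine receptor Cx3cr1 was at 10.06, 10.66, 9.77 and 9.46 in the monocytes and 4.93, 5.62, 5.36 and 5.54 after transfer (-4.63 ± 0.20). The leukotriene B4 receptor Ltb4r1 was at 8.75, 9.24, 8.63 and 8.60 in the monocytes and 3.80, 3.81, 3.79 and 4.17 after transfer (-4.91 ± 0.15). Gpr183, a receptor for oxysterols (-3.61), and the platelet-activating factor receptor Ptafr (-2.02) also fell. C5ar1, the receptor for complement fragment C5a, was at 7.33, 8.01, 7.40 and 7.61 in the monocytes and 11.13, 11.33, 10.98 and 10.66 after transfer (3.44 ± 0.18), and Cxcr2 rose by 1.93.

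Adhesion molecules turned over within each class. Of 24 integrins, selectins and ligands 11 rose and 7 fell (median 0.07). Itgam, which encodes CD11b and marks monocytes, was at 8.66, 9.75, 9.48 and 9.23 in the monocytes and 3.87, 3.42, 3.87 and 3.64 after transfer (-5.58 ± 0.20), the opposite of Itgax above, whose product pairs with the same β chain. That chain, Itgb2, rose by 0.87. F11r, a junctional adhesion molecule, was at 4.01, 4.21, 5.37 and 5.04 in the monocytes and 9.82, 9.41, 9.80 and 9.37 after transfer (4.94 ± 0.23). Itgb5 (1.67) and Itga5 (1.25) rose, and Itgb7 (-3.92), Icam2 (-2.50) and Itga4 (-1.73) fell. Genes better known from epithelium moved mostly up: 12 of 19 measured members rose and 2 fell (median 1.40). Perp, a desmosome protein, was at 4.27, 4.26, 4.20 and 3.83 in the monocytes and 9.70, 9.36, 9.45 and 9.43 after transfer (5.35 ± 0.20). Cdh1, which encodes E-cadherin, was at 5.20, 4.96, 5.03 and 5.20 in the monocytes and 8.48, 8.91, 8.75 and 8.07 after transfer (3.46 ± 0.19). Both were well apart between the groups. Krt79 (4.43), claudin-1 (Cldn1, 3.18), plakoglobin (Jup, 2.91) and Epcam (2.46) rose with the catenins Ctnnd1 (2.03) and Ctnnb1 (1.40). Vinculin (Vcl) fell by 2.34. The lung epithelium markers given above bear on this list, and Cdh1 and Epcam belong to both.

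Toll-like receptors changed in both directions, and more lectins and paired receptors rose than fell. Of 32 pattern receptors and their partners 7 rose and 12 fell (median -0.09). Tlr1 was at 7.07, 7.29, 7.58 and 6.23 in the monocytes and 3.47, 3.22, 4.01 and 3.44 after transfer (-3.5 ± 0.20), and Tlr9, the receptor for bacterial DNA (-2.94), Tlr13 (-1.25), Tlr6 (-0.68), Ly86, a partner of the Toll-like protein CD180 (-3.70), and Cd180 itself (-1.39) fell. Tlr4, the receptor for lipopolysaccharide, was at 7.95, 7.90, 7.97 and 8.10 in the monocytes and 9.80, 9.71, 9.81 and 9.71 after transfer (1.78 ± 0.10), and Tlr3 (1.26), Tlr2 (0.95) and Tlr8 (0.83) rose. Among 19 C-type lectins 10 rose and 4 fell (median 0.90). With Mrc1 and Clec4n, the oxidised lipoprotein receptor Olr1 (5.29), Ly75 (4.65) and Clec1b (3.63) rose, and Clec4a1 (-5.21), Clec10a (-2.25) and Clec12a (-1.77) fell. Of 31 Siglecs and paired or inhibitory receptors 19 rose and 6 fell (median 1.06). Cd200r4, a member of the CD200 receptor family, was at 4.90, 4.26, 4.10 and 3.69 in the monocytes and 9.79, 9.26, 9.72 and 9.83 after transfer (5.42 ± 0.18). Siglec1, the sialoadhesin, was at 5.94, 5.67, 6.06 and 5.64 in the monocytes and 9.43, 9.80, 9.99 and 9.38 after transfer (3.82 ± 0.23). Siglecf, the Siglec used to mark alveolar macrophages, was at 6.24, 5.71, 5.73 and 5.79 in the monocytes and 8.85, 9.29, 8.61 and 8.51 after transfer (2.95 ± 0.19). It was still below native cells, at 9.69, 9.55, 9.72 and 9.51 (-0.80 ± 0.19, adjusted p = 0.0185). That call was lost without BM-derived replicate 3 (-0.73) or 4 (-0.70) or native replicate 1 (-0.78) or 3 (-0.77). Havcr2, which encodes TIM-3 (3.67), Trem1 (3.5) and Cd300lf (3.12) rose, and Trem3 (-2.16), Vsir, which encodes the checkpoint molecule VISTA (-1.84), and Cd300a (-1.79) fell. Of 16 Fc receptors and complement genes 4 rose and 4 fell, among them Fcgr4 (3.15) and complement factor B (Cfb, 2.75) upward.

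Secreted mediators rose more often than they fell: 17 of 43 measured members rose and 6 fell (median 0.28). Il1a, an alarm cytokine held in alveolar macrophages, was at 2.95, 3.19, 3.10 and 3.11 in the monocytes and 8.31, 8.09, 8.45 and 7.95 after transfer (5.11 ± 0.23). Its antagonist Il1rn rose by 3.38 and Il18 by 3.73. The growth factors Pdgfc (4.49) and Igf1 (3.58) and the chemokines Pf4 (2.88), Ccl17 (2.30) and Ccl22 (1.77) rose. Ccl9 (-1.88), Cxcl10 (-1.67), Ccl2 (-1.65) and Il15 (-1.13) fell. Of 25 genes of lipid mediators 14 rose and 6 fell (median 0.55), with the enzymes of leukotriene synthesis among the rises. Alox5, which makes leukotriene A4, was at 6.25, 5.73, 5.97 and 5.75 in the monocytes and 9.75, 10.10, 9.79 and 9.58 after transfer (3.88 ± 0.16). Ltc4s, which turns it into leukotriene C4, was at 4.93, 4.53, 5.04 and 4.62 in the monocytes and 10.66, 10.24, 10.68 and 10.16 after transfer (5.66 ± 0.15). Both rose in every array, and the thromboxane synthase Tbxas1 (2.08) and the remodelling enzyme Lpcat3 (2.35) rose with them. Hpgd, which breaks down prostaglandins, was at 9.87, 9.70, 9.27 and 8.98 in the monocytes and 4.10, 3.88, 3.65 and 3.84 after transfer (-5.59 ± 0.22), and Pla2g7 (-3.20) and the leukotriene receptor Cysltr1 (-3.19) fell.

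The lysosome and its acidification moved up. Of 20 vacuolar proton pump subunits 12 rose and 0 fell (median 0.51), and with arrays centred 11 rose and 1 fell. Atp6v0d2 was at 4.36, 3.59, 3.83 and 4.31 in the monocytes and 12.38, 12.39, 12.33 and 12.31 after transfer (8.33 ± 0.13), while its widely expressed counterpart Atp6v0d1 rose by 0.76. Atp6v0a1 (1.88) and Atp6v1c1 (1.54) were the other subunits above 2-fold. Of 19 cathepsins and cystatins 12 rose and 6 fell (median 0.56). After Ctsk, Ctsd (2.37), Tpp1 (2.12), Ctsl (2.11) and legumain (Lgmn, 1.64) rose, and Ctse (-4.22) and Napsa (-3.40) fell with the granule protease Ctsg. Of 35 genes of lysosomal lipid and glycan breakdown 20 rose and 6 fell (median 0.42), led by Cd63 (3.01), the phospholipase Pla2g15 (2.54), the acid lipase Lipa (2.21) and the cholesterol transporter Npc1 (1.90). Plbd1 (-7.25) and Hgsnat (-1.71) fell. In NADPH oxidase and oxidant genes 4 of 14 rose and 5 fell. The proton channel Hvcn1 rose by 3.70, and the oxidase subunit Ncf4 fell by 1.95.

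Lipid uptake and storage rose together with fatty acid oxidation. Of 33 carriers, uptake and storage genes 21 rose and 6 fell (median 1.22). Cd36, a fatty acid and scavenger receptor, was at 4.62, 4.18, 4.23 and 4.43 in the monocytes and 10.67, 10.58, 10.24 and 10.32 after transfer (6.09 ± 0.13, at least 56.8-fold). The lipid droplet protein Cidec (5.65), the monoacylglycerol lipase Mgll (5.43), Fabp4 (5.13), lipoprotein lipase (Lpl, 4.51), the scavenger receptor Marco (3.79) and the cholesterol exporters Abcg1 (3.77) and Abca1 (2.27) rose. Apoe, the apolipoprotein that carries exported cholesterol, went the other way, at 10.16, 10.43, 10.13 and 10.21 in the monocytes and 6.12, 6.17, 6.59 and 6.26 after transfer (-3.95 ± 0.30). Apoc1 (-3.83), Abca9 (-4.03) and Fabp7 (-2.16) fell too. Of 30 fatty acid oxidation genes 21 rose and 0 fell (median 0.91), and with arrays centred 19 rose and 1 fell. Pdk4, a kinase that holds back glucose oxidation, was at 3.5, 3.38, 3.13 and 3.69 in the monocytes and 6.91, 7.01, 7.57 and 6.58 after transfer (3.60 ± 0.32). Pex11a, a peroxisome growth protein, was at 4.57, 4.40, 4.54 and 5.89 in the monocytes and 8.0, 8.15, 7.79 and 8.33 after transfer (3.22 ± 0.31). Monocyte replicate 4 was above the other 3 for Pex11a, still below every BM-derived array. The peroxisomal enzymes Ehhadh (2.04) and Hsd17b4 (1.65) and the mitochondrial carnitine enzymes Cpt2 (1.61) and Cpt1a (1.3) rose. Of 72 respiratory chain genes 11 rose and 5 fell (22.2% called, below the 36.4% of all genes, median -0.00). No member passed 2-fold, and with arrays centred the counts turned to 5 up and 12 down. Of 34 genes of glycolysis, the pentose phosphate path and glycogen 12 rose and 9 fell (median 0.15). Aldoc (4.19) and Pdk1 (1.59) rose, and Ldhb (-2.71) and the glycogen branching enzyme Gbe1 (-2.16) fell.

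Iron handling and defence against oxidants moved mostly up. Of 22 iron and haem genes 10 rose and 2 fell (median 0.52). Ncoa4, which delivers ferritin to the lysosome, was at 7.30, 7.92, 7.22 and 7.67 in the monocytes and 10.58, 10.87, 10.61 and 10.46 after transfer (3.10 ± 0.18). Hmox1, which degrades haem, was at 9.03, 9.19, 9.45 and 9.17 in the monocytes and 11.72, 11.41, 11.34 and 11.62 after transfer (2.31 ± 0.26). The groups did not overlap for either gene. Flvcr2 rose by 3.41, while its relative Flvcr1, a haem exporter, fell by 1.60. The ferritin chains Fth1 (0.75) and Ftl1 (0.66) rose by under 2-fold. Of 38 antioxidant and detoxifying enzymes 21 rose and 6 fell (median 0.54). The aldo-keto reductase Akr1b8 (4.38), the cystine transporter chain Slc7a11 (3.57), sulfiredoxin (Srxn1, 1.93) and Gclm (1.61), a subunit of the enzyme that starts glutathione synthesis, rose. Their known regulator NRF2 (Nfe2l2) rose by 0.99. Gpx3 (-1.71) and Aldh2 (-1.39) fell.

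Matrix, clotting and cytoskeletal genes changed in both directions. Of 30 matrix proteins, proteases and inhibitors 10 rose and 6 fell (median 0.13). Mmp12, the macrophage elastase, was at 4.41, 4.32, 4.16 and 4.25 in the monocytes and 8.56, 7.28, 9.68 and 9.02 after transfer (4.35 ± 0.46). Fn1, which encodes fibronectin, was at 10.57, 11.98, 11.50 and 11.12 in the monocytes and 7.28, 7.19, 7.80 and 7.24 after transfer (-3.91 ± 0.40). The groups were apart for both, and BM-derived replicate 2 was the lowest for Mmp12. Serpinb6a (5.23), Tgm2 (3.78) and Mmp19 (3.40) rose, and versican (Vcan, -4.54) and Thbs1 (-1.75) fell. Of 19 coagulation genes 8 rose and 4 fell (median 0.26), with clotting factor VII (F7, 5.29) and its inhibitor-side protein S (Pros1, 2.41) up and F13a1 and factor V (F5, -1.46) down. Among 46 actin and motility genes 15 rose and 11 fell (median 0.15). Marcks, a kinase substrate at the membrane, was at 9.66, 10.19, 9.84 and 9.60 in the monocytes and 4.81, 4.01, 4.61 and 4.97 after transfer (-5.22 ± 0.22), and Pstpip1 (-4.16), Cnn2 (-3.51) and coronin 1A (Coro1a, -1.38) fell. The myosin Myo1e (4.03) and ezrin (Ezr, 2.33) rose. Of 16 tetraspanins 7 rose and 3 fell, with Cd9, Cd81 (4.51) and Cd63 leading and Tspan13 (-3.25) lowest.

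After 6 weeks in the lung the cells differed from native macrophages of the same age in few genes. By limma 101 genes were higher (0.825% of those tested) and 59 lower (0.482%) in BM-derived than in native cells, 1.31% in all. Of the 982 list genes 36 were called (3.67%), and of the 30 genes that led the change from monocyte 2 were called, Ctsk, higher by 0.75 ± 0.20 (adjusted p = 0.0441), and Emb. The call of Ctsk was lost with arrays centred (0.69, adjusted p = 0.0845) and without BM-derived replicate 1 (0.73), 3 (0.71) or 4 (0.71) or native replicate 1 (0.70), 3 (0.69) or 4 (0.79). The comparison uses the same BM-derived arrays as the one above, and it differs from it in host genotype as well as in origin. Scd1, which makes monounsaturated fatty acids, was at 7.89, 7.26, 10.01 and 9.04 in BM-derived and 5.05, 6.22, 4.68 and 5.36 in native arrays (3.22 ± 0.37, adjusted p = 5.76e-07). Awat1, which makes wax esters, was at 8.11, 6.16, 8.71 and 8.35 and 4.54, 4.57, 5.12 and 3.98 (3.28 ± 0.37). BM-derived replicate 2 was the lowest for both and still above all 4 native arrays. Both were also high in FL-derived macrophages, with means of 8.49 ± 0.53 and 7.65 ± 0.82 (SD, n = 4), and in YS-derived ones, with 8.89 ± 0.27 and 7.84 ± 0.46. Akr1b8 (2.77 ± 0.37), Mfge8, a bridge to dying cells (2.54 ± 0.26), Mmp12 (2.17 ± 0.46), the secreted phospholipase Pla2g2d (2.77 ± 0.38), Hnmt, which inactivates histamine (2.83 ± 0.28), and Il1f9 (2.33 ± 0.40) were higher. So were S100a6, at 12.07, 11.92, 12.53 and 12.36 against 8.29, 11.17, 10.05 and 8.91 (2.61 ± 0.46), and S100a4 (2.17 ± 0.46), calcium-binding proteins that were high in the monocytes, at means of 12.86 ± 0.08 and 12.65 ± 0.04. Native arrays were spread over more than 2 log2 units for both. FL-derived and YS-derived means were 10.94 ± 0.95 and 10.95 ± 0.21 for S100a6, against 9.60 ± 1.27 in native cells. For S100a4 they were 9.83 ± 0.94 and 10.13 ± 0.38, against 9.06 ± 1.06 in native cells. Yolk sac macrophages before transfer had means of 8.22 ± 0.725 for S100a6 and 7.14 ± 0.51 for S100a4. Without native replicate 1 S100a4 was no longer called (1.73, adjusted p = 0.0612), and without BM-derived replicate 3 Mmp12 was not (1.82, adjusted p = 0.0638). FL-derived and YS-derived means were 7.41 and 8.40 for Akr1b8 (native 4.99), 8.14 and 8.44 for Mfge8 (native 5.55) and 8.71 and 9.62 for Mmp12 (native 6.46). They were 5.50 and 5.83 for Pla2g2d (native 4.64), 4.31 and 4.66 for Hnmt (native 3.00) and 6.02 and 4.07 for Il1f9 (native 3.51).

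Genes lower than in native cells included some that had been high in the monocytes. Emb, a partner of lactate transporters, was at 11.33, 11.58, 11.32 and 11.22 in monocytes, 5.95, 6.35, 5.05 and 4.41 in BM-derived and 8.59, 9.11, 9.14 and 8.71 in native arrays (-3.45 ± 0.43, adjusted p = 2.42e-06). Fn1 was at 10.08, 9.97, 10.47 and 10.30 in native arrays, between monocyte and BM-derived levels (-2.83 ± 0.40). Apoc1 was at 8.16, 7.60, 8.84 and 8.55 in monocytes, 4.87, 3.97, 4.01 and 4.97 in BM-derived and 8.05, 9.06, 8.29 and 8.76 in native arrays (-4.08 ± 0.43, adjusted p = 1.00e-07). For all 3 genes the BM-derived arrays lay below both other groups without overlap. FL-derived macrophages had means of 9.40 ± 1.2 for Fn1 and 9.11 ± 1.15 for Apoc1, against 10.21 ± 0.23 and 8.54 ± 0.45 in native cells. YS-derived means were 9.12 ± 0.37 for Fn1 and 9.02 ± 0.69 for Apoc1. For Emb the FL-derived and YS-derived means were 6.91 ± 1.36 and 5.80 ± 0.94, against 8.89 ± 0.28 in native cells. Hpgd (-1.56 ± 0.22) and Bex3 (-1.94 ± 0.36) were lower too. Their FL-derived and YS-derived means were 4.085 and 4.06 for Hpgd (native 5.425) and 5.53 and 6.24 for Bex3 (native 7.35). Wfdc10 (-2.94 ± 0.27) rose from the monocyte level without reaching that of native cells. Rps4l, a relative of a ribosomal protein gene, was at 6.80, 6.42, 6.71 and 7.09 in monocytes, 6.85, 6.86, 6.27 and 6.30 in BM-derived and 8.20, 8.64, 7.98 and 8.27 in native arrays (-1.70 ± 0.18). Its difference between monocyte and BM-derived cells did not pass the test (-0.18, adjusted p = 0.458). Xlr (-2.83 ± 0.31), Adgrl3 (-2.73 ± 0.24) and Sema6d (-1.55 ± 0.26) were below native cells as well, with values of 0.49, 0.06 and 0.51 over the transfer that did not pass. FL-derived and YS-derived means were 8.28 and 9.33 for Wfdc10 (native 9.86), 8.26 and 8.63 for Rps4l (native 8.27) and 7.01 and 8.66 for Xlr (native 8.695). For Adgrl3 they were 4.845 and 4.42 (native 6.69), and for Sema6d 4.20 and 4.59 (native 5.90).

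**Figure D4:**
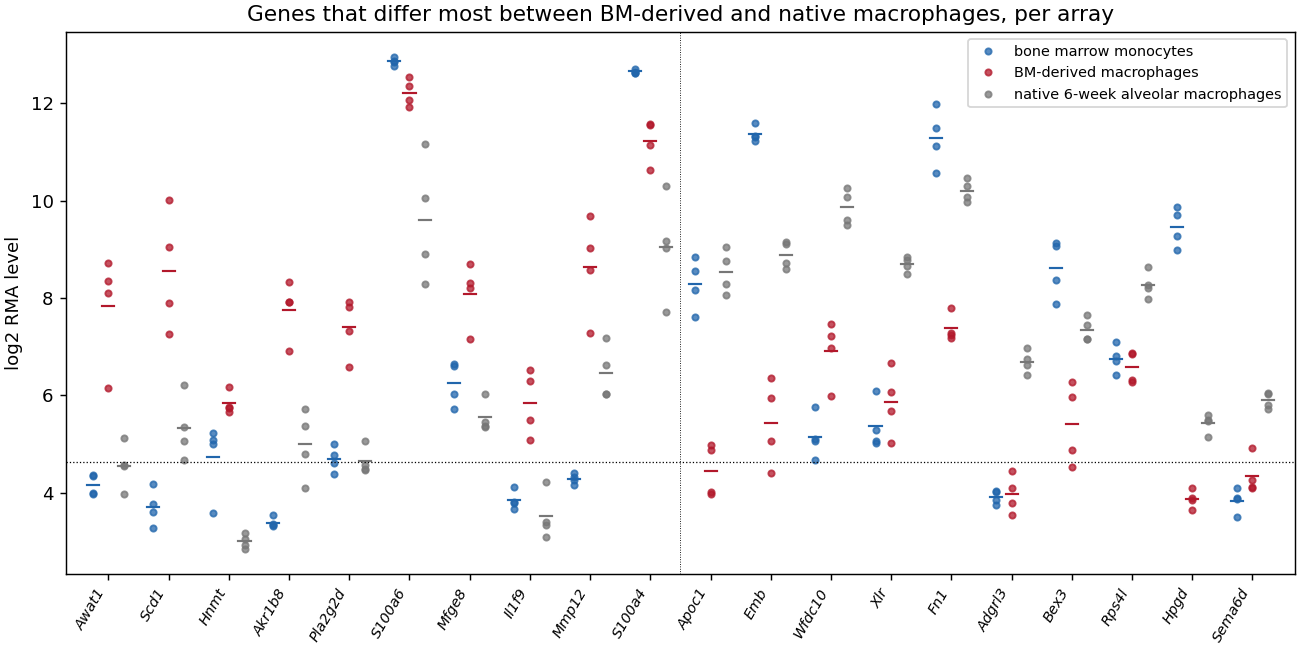
Log2 RMA level of the 10 genes most above (left of the vertical line) and the 10 most below native macrophages, per array, in bone marrow monocytes (blue), BM-derived (red) and native macrophages of 6 weeks (grey); short lines are means of 4 arrays and the dotted line is the table's median of 4.62. BM-derived and native arrays overlap for none of the 20 genes, which follows largely from their choice by the difference between these groups. For Apoc1, Emb, Fn1, Bex3 and Hpgd the BM-derived arrays are below both other groups.

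The change over transfer was then set against that of fetal liver monocytes given the same transfer. The difference of the 2 changes was tested in the same fit. It was positive for 695 genes (5.68%) and negative for 522 (4.26%), 9.94% in all. Among the list genes 177 of 982 were called (18.0%), and among the 30 leading genes 10. The 30 were chosen by the bone marrow change, which is part of this contrast, so their count is no separate result. The 10 genes with the largest positive difference had higher means in fetal liver than in bone marrow monocytes before transfer. Stfa3, a stefin of neutrophils, was at 11.87, 12.40, 12.47 and 12.51 in fetal liver and 2.71, 3.68, 3.08 and 4.36 in bone marrow monocytes. After transfer it was at 2.81, 2.66, 2.56 and 2.65 in FL-derived and 2.90, 2.66, 3.07 and 2.62 in BM-derived cells, so that the difference of 9.0 ± 0.35 (adjusted p = 3.18e-19) lay in the precursors. The same held for its relatives Csta3 (6.55 ± 0.26) and Stfa2 (4.15 ± 0.37), for the neutrophil protein Olfm4 (5.35 ± 0.26) and for Cd34, a progenitor marker (5.27 ± 0.24), for which bone marrow monocyte means were under the table's median. Thbs1 (3.88 ± 0.26) and the early response genes Egr1 (3.09 ± 0.32) and Ptgs2 (3.10 ± 0.36) were higher in fetal liver monocytes, which had been digested with collagenase, and the part of handling was not tested. Id3 (3.63 ± 0.58) differed by -2.74 between FL-derived macrophages and their monocytes and by 0.90 in the bone marrow lineage (adjusted p = 0.086). Trem1, an amplifier of inflammatory signals, was at 4.29, 3.88, 5.07 and 4.12 in bone marrow and 6.78, 7.18, 7.31 and 7.24 in fetal liver monocytes and reached 8.40, 7.97, 7.98 and 6.99 and 7.90, 7.12, 6.54 and 7.05 (3.47 ± 0.36).

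The 10 genes with the largest negative difference had higher means in bone marrow than in fetal liver monocytes. Chil3, a chitinase-like lectin and a marker of alveolar macrophages, was at 12.20, 12.22, 12.30 and 12.28 in bone marrow and 4.71, 5.10, 4.06 and 5.14 in fetal liver monocytes, and reached 13, 13.07, 13.02 and 12.98 and 13.05, 12.95, 12.98 and 13.04. It thus rose by 0.77 ± 0.14 in the bone marrow lineage and differed by 8.25 in the fetal liver lineage (difference -7.48 ± 0.19, adjusted p = 1.37e-24). AW112010 (-4.38 ± 0.38) and Ms4a8a (-4.0 ± 0.24) had the same pattern. Stxbp6, a regulator of vesicle fusion, was at 9.75, 9.25, 9.11 and 10.16 in bone marrow and 4.59, 4.82, 4.64 and 4.71 in fetal liver monocytes and fell to 4.66, 4.66, 4.75 and 4.18 in the bone marrow lineage (-4.95 ± 0.25). Cd177, a neutrophil surface protein (-3.84 ± 0.19), Ms4a4a (-3.65 ± 0.28) and the interferon-induced Ifi213 (-4.34 ± 0.34) and Ifit3 (-3.96 ± 0.68) were likewise high in bone marrow monocytes. Fn1 fell by 3.91 in the bone marrow lineage and differed by 0.77 in the fetal liver one (difference -4.68 ± 0.56), and Fabp7 fell by 2.16 against a difference of 2.04 (-4.20 ± 0.68). Of the regulators above, Pparg rose more in the bone marrow lineage (difference 2.24 ± 0.20, adjusted p = 9.45e-10), and so did Tcf7l2 (1.56 ± 0.22). Pparg means before transfer were 5.50 ± 0.38 in bone marrow and 7.85 ± 0.21 in fetal liver monocytes, and after transfer 10.23 ± 0.21 and 10.34 ± 0.11 (SD, n = 4). The difference for Irf7 was -1.60 ± 0.38, and no chain of the GM-CSF receptor was called.

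**Figure D5:**
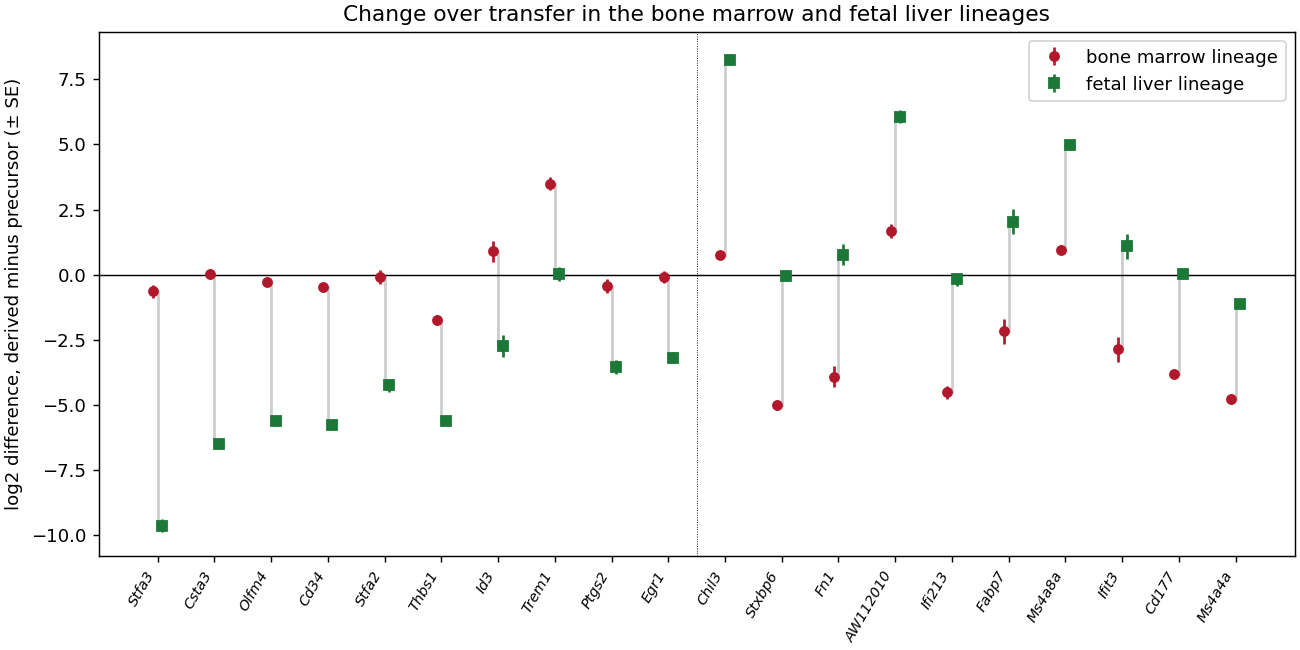
Change over transfer (derived minus precursor, log2, n = 4 arrays per group) in the bone marrow (red circles) and fetal liver (green squares) lineages for the 10 genes with the largest positive (left of the dotted line) and the 10 with the largest negative difference; bars are standard errors of the limma fit and grey lines join the values of a gene. Trem1 goes from 3.5 in the bone marrow to 0.02 in the fetal liver lineage and Chil3 from 0.77 to 8.25.

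Set against the change of yolk sac macrophages, 2228 genes had a positive difference (18.2%) and 1523 a negative one (12.4%), 30.6% in all. At 2-fold or more these were 10.2% and 5.77%, and with each array centred 1602 differences were positive and 2841 negative. Yolk sac macrophages already carried Dab2 and Mrc1, with means of 12.56 ± 0.05 and 11.76 ± 0.06 against 4.34 ± 0.36 and 4.69 ± 0.40 in bone marrow monocytes. The difference was 8.46 ± 0.23 for Dab2 and 7.26 ± 0.30 for Mrc1. In the other direction S100a8 fell by 2.51 in the bone marrow lineage and differed by 6.90 in the yolk sac lineage (difference -9.40 ± 0.58). Its means after transfer were 10.14 ± 1.18 and 10.53 ± 0.23. Mgst1, a glutathione transferase at the membrane, was at 11.41 ± 0.12 before and 11.28 ± 0.11 after transfer in the bone marrow lineage and went from 3.73 ± 0.33 to 11.47 ± 0.17 in the yolk sac lineage (difference -7.87 ± 0.24).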

How the data were processed

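The deposited table holds log2 values of 35556 probe sets on 36 Affymetrix Mouse Gene 1.0 ST arrays, made by the authors with RMA, as the submitters' processing notes name it (version not stated). RMA subtracts background, gives every array 1 distribution of probe values and combines the probes of a set, so a shift shared by most genes is removed. Cells were sorted and their RNA amplified, per the labels' protocols and the series' design text. Single arrays have no read depth, and their number limits the precision.

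Probe sets were named through GEO's platform annotation, with symbols updated through RefSeq (GRCm38.p6): 21789 had 1 symbol and were used, 1621 had several and 12146 no entry. For 999 genes with several probe sets the brightest was kept. Genes above the table's median (4.623) in at least 4 arrays were tested. A model with 9 group means was fitted to all 36 arrays in limma 3.58.1 (R 4.3.3), with the interaction contrasts given above, adjusted by Benjamini-Hochberg per contrast. On simulated data with 200 changed genes it recovered 90% of log2 changes of 1 and 99% of 2 for the transfer contrast (4.55% of calls false), and 54% and 97% for the contrast with fetal liver (4.43% false). Noise was drawn as independent and normal from each gene's spread under the same model, so the false shares check the code and not the data. Only 200 of 12244 genes were changed, while 36.4% were called over the transfer, so the recovery rates need not hold for the data.

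Named genes are the 15 largest rises and falls without overlap between groups, up to 6 per list and direction, and 10 per direction in other contrasts, leaving out predicted, small RNA and immunoglobulin segment genes. Pparg, Tcf7l2 and Irf7 in the contrast with fetal liver, Dab2, Mrc1 and Mgst1 in that with yolk sac, and other genes outside this rule were picked with their values in view. The comparison and the 34 lists (1217 entries, 994 tested, 115 too dim, 108 not matched) were chosen with earlier results of these data known. Group levels are mean ± SD. No slide, scan or hybridisation batch is given in the sources used here. Proteins were not analysed here.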

Additional observations from a re-analysis of the deposited data

Results flagged for a closer look

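In 9 of 132 groups of 4 arrays whose values are given above, 1 array stood apart from the other 3 by Dixon's criterion, which chance alone flags in about 1 group in 20. These log2 levels were Camp in BM-derived replicate 4 (4.27, the others 4.67 to 4.70), Ctsk in BM-derived replicate 2 (10.76, the others 11.13 to 11.20), Fn1 in BM-derived replicate 3 (7.80, the others 7.19 to 7.28), Ltb4r1 in BM-derived replicate 4 (4.17, the others 3.79 to 3.81). Further such levels were Perp in monocyte replicate 4 (3.83, the others 4.20 to 4.27), Pex11a in monocyte replicate 4 (5.89, the others 4.40 to 4.57), S100a9 in BM-derived replicate 3 (3.34, the others 3.65 to 3.70), Siglecf in monocyte replicate 1 (6.24, the others 5.71 to 5.79) and Stxbp6 in BM-derived replicate 4 (4.18, the others 4.66 to 4.75). BM-derived replicate 4 was the array apart for 3 of these genes, BM-derived replicate 3 and monocyte replicate 4 for 2 each, and BM-derived replicate 2 and monocyte replicate 1 for 1 each.

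The change over transfer differed between origins by an interaction test in limma for 1217 genes against the fetal liver and for 3751 against the yolk sac lineage. The differences in log2 change, bone marrow minus fetal liver, were positive for Stfa3 (9.0), Csta3 (6.55), Olfm4 (5.35), Cd34 (5.27), Stfa2 (4.15), Thbs1 (3.88), Id3 (3.63), Trem1 (3.47), Ptgs2 (3.10), Egr1 (3.09), Pparg (2.24) and Tcf7l2 (1.56). They were negative for Chil3 (-7.48), Stxbp6 (-4.95), Fn1 (-4.68), AW112010 (-4.38), Ifi213 (-4.34), Fabp7 (-4.20), Ms4a8a (-4.0), Ifit3 (-3.96), Cd177 (-3.84), Ms4a4a (-3.65) and Irf7 (-1.60). Against the yolk sac lineage the differences were 8.46 for Dab2, 7.26 for Mrc1, -7.87 for Mgst1 and -9.40 for S100a8.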

How the results depend on the processing

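The results were recomputed with the arrays of the groups compared alone, without the filter on low values, with all probe sets of a gene averaged, with each array centred on its median, with a trended robust spread, with a replicate block, with a test against a fold of 2 and without each array in turn. Each total of called genes, per contrast and over all lists, stayed within 1.5 times its value in each of these except the test against a fold of 2. Counts of 1 direction or of 1 list could move more. Falls over the transfer went from 1969 to 3123 on centring. The test against a fold of 2 called 847 genes over the transfer (523 higher, 324 lower). It called 67 for the change against fetal liver, 688 against yolk sac, 14 against native cells and 201 in the lists. Leaving out 1 array gave 3981 to 4333 calls over the transfer, 546 to 561 in the lists, 1024 to 1238 against fetal liver, 3372 to 3769 against yolk sac and 111 to 170 against native cells.

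Centring moved the share of higher calls over the transfer from 55.8% to 38.9%, against yolk sac from 59.4% to 36.1% and in the lists from 61.3% to 51.7%, and 3960 genes were called with the same sign under both scalings. The cause was not tested. The replicate numbers did not pair the samples (same-number correlations of 0.028, 0.127, 0.057 and 0.114), and with a replicate block 4419 genes were called over the transfer, 1214 against fetal liver, 3719 against yolk sac, 152 against native cells and 576 in the lists. Of 269 named genes called over the transfer none changed sign in any setting, and beside the test against a fold of 2 the calls of Sftpc, Stfa3, Cd34 and S100a4 were lost in at least 1.

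Signs turned only for genes not called over the transfer. Centring gave -0.08 for Adgrl3 and -0.094 for Csta3. Leaving out 1 array gave -0.104 to 0.196 for Adgrl3, -0.015 to 0.118 for Csta3 and -0.264 to 0.003 for Egr1. The arrays carry no detection call, so levels near the table's median limit what can be told for dim genes.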

Other observations

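Further gene lists were counted between monocyte and BM-derived macrophage, where 36.4% of all genes were called. Of 17 purine receptors and enzymes 11 rose and 5 fell (median log2 difference 0.68). P2ry14, a receptor for UDP-sugars, was at 5.07, 5.26, 4.94 and 4.70 in the monocytes and 10.02, 9.62, 9.71 and 9.33 after transfer (4.68 ± 0.14). P2ry13, an ADP receptor, was at 4.97, 4.82, 5.33 and 5.97 in the monocytes and 9.75, 9.61, 9.52 and 9.06 after transfer (4.21 ± 0.20). The groups did not overlap for either. The ectoenzymes Bst1 (3.07) and Nt5e (2.61) rose, and the ADP receptor P2ry1 fell by 2.70. Of 14 circadian clock genes 5 rose and 3 fell, led by Rora (1.03), Clock (0.89) and the clock kinase Csnk1e (0.87) on 1 side and Nfil3 (-0.84) and Cry2 (-0.75) on the other. The time of day of the sorts is not given in the sources used here. Of 17 genes of MHC class I presentation 6 rose and 6 fell, with the non-classical lipid-presenting molecule Cd1d1 (1.81) and the chaperone calreticulin (Calr, 1.25) up and the peptide transporter Tap1 (-1.61) and the immunoproteasome subunit Psmb8 (-0.62) down.

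Among 33 genes of cell death and survival 4 rose and 7 fell (33.3% called, below the share over all genes, median -0.19), with the survival factor Bcl2l1 (0.89) up and its relative Bcl2 (-0.73), the death agonist Bid (-1.49) and Birc3 (-1.48) down. Of 37 DNA methylation and histone enzymes 6 rose and 10 fell (43.2% called, median -0.10). The DNA methyltransferase Dnmt3a rose by 1.38, and the Polycomb enzyme Ezh2 (-1.04) and the demethylases Kdm7a (-1.83) and Kdm5b (-0.85) fell. Of 58 cytosolic ribosomal protein genes 2 rose and 8 fell (17.2% called). The list was left with 1 rise and 29 falls once arrays were centred and with 2 rises and 0 falls in the fit of 8 arrays, so it has no settled direction.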
